A study of Homo sapiens with 12 samples.

Results

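The response to a PKCδ siRNA was compared between BT-549 and MDA-MB-468 cells in genes that both lines express. A gene entered when the probe that read it was detected, at a detection p under 0.01 against the negative control beads, on all 12 arrays. This held for 7916 of the 11459 genes tested, and the array carries a named probe for 20046 genes. For each gene the difference between the lines was taken as the interaction, which is the log2 fold change of siPRKCD over siControl in BT-549 cells minus that in MDA-MB-468 cells. A positive interaction means that the gene was higher with siPRKCD in BT-549 cells relative to what it did in MDA-MB-468 cells, and a negative one means that it was lower. The question is which genes, measured above background in both lines, answered the siRNA with a different size or direction.

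There were 4 groups of 3 arrays, namely BT-549 cells transfected with siPRKCD, an siRNA against the PKCδ mRNA, BT-549 cells transfected with siControl, a control siRNA, and MDA-MB-468 cells with each of the same siRNAs. Both are established human breast cancer lines that the study describes as basal-like, and it used the PKCδ siRNA to induce cell death. All cells were transfected, and the labels give a single PKCδ siRNA treatment, so effects of this reagent beyond PKCδ cannot be told apart from those of its loss. According to the methods the medium of BT-549 cells alone held added insulin, so line and medium cannot be told apart either. The study speaks of repeated experiments, but nothing in the labels says whether the replicates were separate cultures or what their numbers stand for, so a p-value reflects no more than the variation among the arrays of a group. The samples are bulk RNA, in which fewer cells of a type and less RNA per cell cannot be told apart.

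PKCδ is a serine and threonine kinase that is activated by diacylglycerol without calcium and takes part in the control of apoptosis and proliferation. Several pathways recur among the genes below. Type I interferon receptors signal through the kinases JAK1 and TYK2 to a complex that includes IRF9 and binds interferon-stimulated response elements in front of antiviral genes, while growth factor receptors signal through ERK to a set of immediate targets and feedback inhibitors such as the Sprouty proteins. ATF4 is the transcription factor of the integrated stress response and drives genes for amino acid supply.

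Several cell type markers differed between the lines in detection. The epithelial markers EPCAM, KRT8, KRT18 and KRT19 were detected on 6 of 6 MDA-MB-468 arrays and on 0 of 6 BT-549 arrays, the mesenchymal markers SPARC, COL1A2 and ZEB1 on 6 of 6 BT-549 arrays and 0 of 6 MDA-MB-468 arrays, and VIM and CDH1 on all arrays. FN1 and the leukocyte markers PTPRC, CD3E and TYROBP were detected on none, while LYZ was detected on 3 BT-549 and 5 MDA-MB-468 arrays. Arrays of a group correlated at 0.987 to 0.997 over the probes kept, and arrays of different lines at 0.847 to 0.871. In BT-549 cells 15616 to 16595 probes were detected with siPRKCD, fewer than the 16640 to 17263 with siControl, whereas in MDA-MB-468 cells the ranges of 16562 to 17724 with siPRKCD and 16036 to 17604 with siControl overlapped. The part of this difference in detection in the results below was not tested.

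PRKCD itself was detected on 10 of 12 arrays and is therefore not among the 7916 genes. Its log2 signals were 6.89, 6.67 and 7.01 with siPRKCD and 7.71, 7.73 and 7.76 with siControl in BT-549 cells. In MDA-MB-468 cells they were 7.29, 7.20 and 7.47 with siPRKCD and 9.15, 9.13 and 8.82 with siControl. The siPRKCD arrays lay below the siControl arrays in both lines, and the log2 fold change was -0.87 (limma adjusted p = 5.3e-05) in BT-549 cells and -1.72 (adjusted p = 6.3e-08) in MDA-MB-468 cells. The interaction of 0.84 (adjusted p = 0.0032) was measured with BT-549 siPRKCD signals close to background, and was not called with median centring or after neqc background correction.

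Of the 7916 genes, 759 had an interaction that passed limma's test (adjusted p under 0.05, by Benjamini and Hochberg's method for the whole table), which is 9.59% and compares with 10.8% of all 11459 genes. The interaction was above 0 in 330 genes (4.17%, against 5.15% of all genes tested) and below 0 in 429 (5.42%, against 5.62%). It was at least 1 in size on the log2 scale in 108 genes and at least 0.5 in 653, with a median size of 0.66 among the 759. Over all 7916 genes the median interaction was -0.01 and the middle range from -0.20 to 0.17, and 7157 genes were not called, which does not show that they responded alike. Without a call in the interaction, 1022 genes were called in the same direction in both lines. Across the 7916 genes the log2 fold changes of the lines, which share no arrays, correlated at r = 0.55 (Spearman rho 0.55), where genes are not independent replicates.

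The number of calls depended on the scaling and on single arrays. Median centring of the arrays in place of quantile normalization gave 257 calls, of which 255 were among the 759, and put 18.7% of them above 0 against 43.5%, while moving the median interaction of the 7916 genes to -0.12. Fitting only the probes detected on all 12 arrays gave 616 calls, and blocking by replicate number within each line gave 1244. Without MDA-MB-468 siPRKCD replicate 2 there were 505 calls and 284 below 0, and without MDA-MB-468 siControl replicate 2 there were 219 above 0.

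By the calls within each line, 319 of the 759 genes were called in BT-549 cells alone (118 higher and 201 lower), 292 in MDA-MB-468 cells alone (150 higher and 142 lower), 62 in opposite directions, 57 in the same direction with unequal size and 29 in neither line. For comparison, 14.5% of the 7916 genes were higher and 16.6% lower with siPRKCD in BT-549 cells (11.6% and 14.9% of all genes tested), and 15.4% were higher and 13.9% lower in MDA-MB-468 cells (12.4% and 13.7%). In the 118 genes higher in BT-549 cells alone the median log2 fold change was 0.58 there and -0.05 in the other line, and in the 142 genes lower in MDA-MB-468 cells alone it was 0.04 in BT-549 cells and -0.66 in MDA-MB-468 cells.

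**Figure D1:**
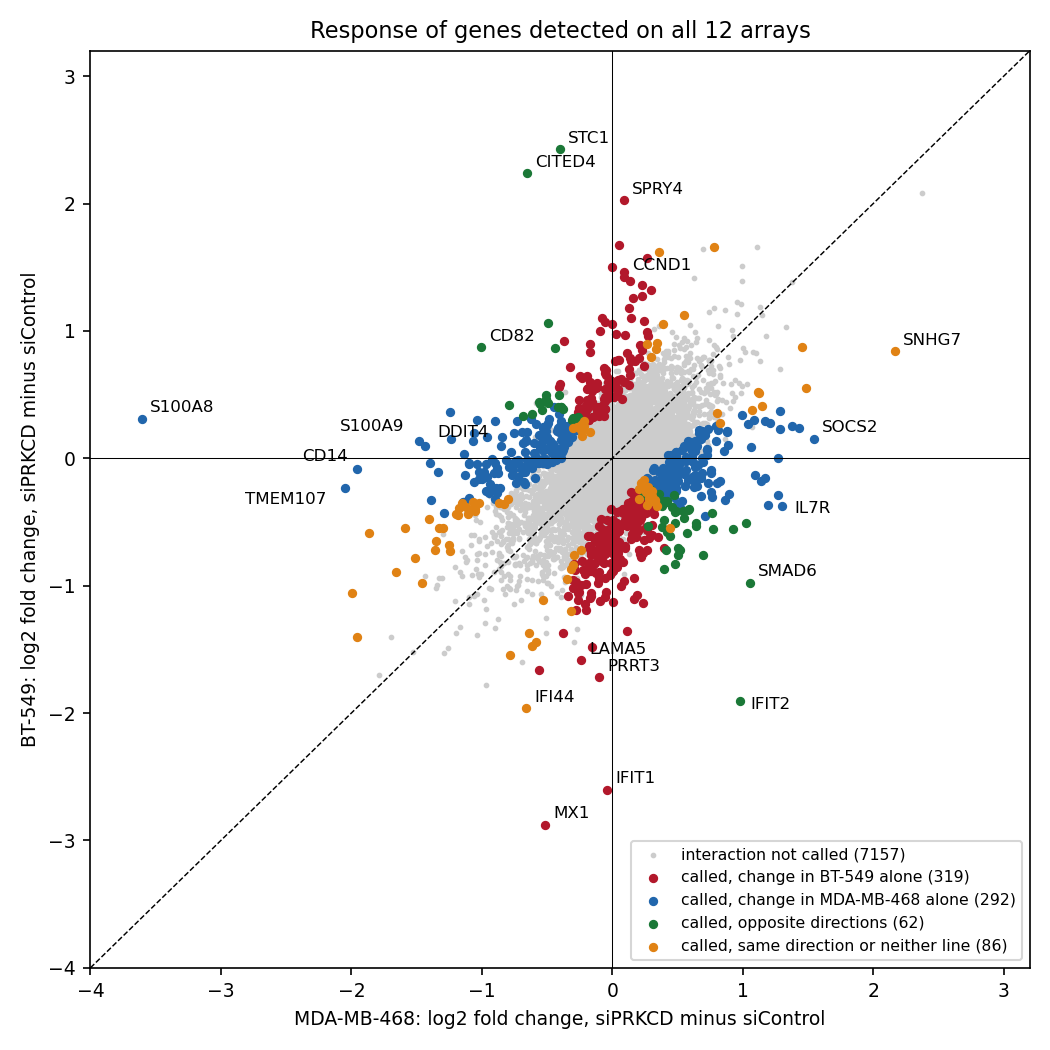
Log2 fold change of siPRKCD over siControl in BT-549 cells (vertical axis) against that in MDA-MB-468 cells (horizontal axis) for the 7916 genes detected on all 12 arrays. Each point is a gene, coloured points are the 759 genes called in the interaction, split by the calls within each line, and the dashed line marks equal responses.

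Among the genes that rose in BT-549 cells alone, SPRY4, a feedback inhibitor of receptor tyrosine kinase signalling to ERK, had the largest interaction. Its log2 signals were 9.20, 9.43 and 8.99 with siPRKCD in BT-549 cells, against 7.33, 7.26 and 6.95 with siControl. In MDA-MB-468 cells they were 7.35, 7.31 and 7.19 with siPRKCD, against 7.33, 7.21 and 7.05 with siControl. SPRY4 thus rose by 2.03 in BT-549 cells, with no overlap between the groups, and its groups overlapped in MDA-MB-468 cells, where the signal was dim (interaction 1.94, standard error 0.18, limma adjusted p = 7.1e-06). CCND1, the cyclin D1 gene of the G1 phase, had 9.14, 9.10 and 8.90 with siPRKCD and 7.51, 7.71 and 7.65 with siControl in BT-549 cells. Its MDA-MB-468 signals were far brighter, 11.82, 11.49 and 11.75 with siPRKCD and 11.88, 11.69 and 11.22 with siControl, and overlapped. CCND1 rose by 1.43 in BT-549 cells alone (interaction 1.34, limma adjusted p = 0.00054).

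Further named genes rose in BT-549 cells alone. NT5E, the ectonucleotidase CD73 that forms adenosine, had signals of 12.19, 12.75 and 11.87 with siPRKCD and 10.46, 10.62 and 10.71 with siControl in BT-549 cells, and 10.97, 10.91 and 11.56 with siPRKCD and 11.23, 11.21 and 10.85 with siControl in MDA-MB-468 cells, an interaction of 1.62 (adjusted p = 0.0016). The glutamate transporter gene SLC1A3 rose by 1.47 in BT-549 cells and had a log2 fold change of 0.09 in MDA-MB-468 cells (interaction 1.37, adjusted p = 0.00034). The stress-inducible survival gene IER3 had an interaction of 1.13 (adjusted p = 0.0087), and CDKN1A, the CDK inhibitor p21, one of 1.02 (adjusted p = 0.019). The IER3 call was lost with median centring, and that of CDKN1A also without BT-549 siControl replicate 2 or MDA-MB-468 siControl replicate 2. A probe for the U3 small nucleolar RNA gene SNORD3C, which has near-identical copies so that its identity is uncertain, rose by 1.5005 in BT-549 cells alone (interaction 1.502, adjusted p = 0.00092).

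Among the genes that fell in BT-549 cells alone, IFIT1 and MX1 had the largest interactions and are described with the interferon genes. The laminin chain gene LAMA5 had signals of 8.74, 8.44 and 8.94 with siPRKCD and 10.61, 10.19 and 10.07 with siControl in BT-549 cells, and 11.62, 11.21 and 11.07 with siPRKCD and 11.79, 11.65 and 11.16 with siControl in MDA-MB-468 cells. It fell in BT-549 cells without overlap and overlapped in MDA-MB-468 cells (interaction -1.35, standard error 0.26, limma adjusted p = 0.0037). The thrombospondin gene THBS1 had an interaction of -1.37 (adjusted p = 0.0047), SLC12A8, a solute carrier gene, one of -1.47 (adjusted p = 0.0004), and PRRT3 one of -1.62 (adjusted p = 0.0009), but the PRRT3 signals of MDA-MB-468 cells were only 6.89, 6.95 and 6.94 with siPRKCD and 6.9996, 7.04 and 7.05 with siControl. HMOX1, the haem-degrading enzyme, fell by 1.19 in BT-549 cells alone (interaction -0.99, adjusted p = 0.0038, lost with neqc). Its MDA-MB-468 signals were only 7.42, 7.31 and 7.09 with siPRKCD and 7.58, 7.56 and 7.28 with siControl, so that a fall there could be seen only in part. The focal adhesion gene ZYX fell by 1.06 in BT-549 cells alone (interaction -0.80, adjusted p = 0.01, lost with median centring), while a dimmer ZYX probe had an interaction of -0.38 (adjusted p = 0.12). The autophagy receptor gene SQSTM1 fell by 0.81 in BT-549 cells and had a log2 fold change of 0.01 in MDA-MB-468 cells (interaction -0.82, adjusted p = 0.018, not called without BT-549 siControl replicate 2 or MDA-MB-468 siPRKCD replicate 2).

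The largest interaction of all belonged to S100A8, a calcium-binding protein of the calprotectin complex, which responded in MDA-MB-468 cells alone. Its log2 signals were 7.28, 7.24 and 7.79 with siPRKCD and 7.24, 7.16 and 6.97 with siControl in BT-549 cells, where they were dim and overlapped. In MDA-MB-468 cells they were 9.73, 9.46 and 9.93 with siPRKCD, against 13.26, 13.44 and 13.23 with siControl. The interaction was 3.92 (standard error 0.21, limma adjusted p = 1.7e-08). Its partner S100A9 had signals of 7.44, 7.66 and 7.45 with siPRKCD and 7.33, 7.35 and 7.47 with siControl in BT-549 cells, and 12.34, 12.33 and 12.29 with siPRKCD and 13.76, 13.82 and 13.84 with siControl in MDA-MB-468 cells, an interaction of 1.62 (adjusted p = 1.5e-06). For both genes the BT-549 signal stayed below 8, so that a fall there could be seen only in part.

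DDIT4, an inhibitor of mTOR complex signalling that is induced by stress, was bright in both lines. Its signals were 12.33, 12.21 and 12.11 with siPRKCD and 12.13, 12.24 and 11.998 with siControl in BT-549 cells, which overlapped. In MDA-MB-468 cells they were 10.11, 9.81 and 9.87 with siPRKCD, against 11.53, 11.28 and 11.29 with siControl, a fall of 1.43 (interaction 1.53, standard error 0.15, limma adjusted p = 1.8e-05). CD14, a co-receptor for bacterial lipopolysaccharide, had a log2 fold change of -0.08 in BT-549 cells and fell by 1.96 in MDA-MB-468 cells (interaction 1.87, adjusted p = 7.9e-05). GABBR2, a subunit of the GABA-B receptor, had an interaction of 1.61 (adjusted p = 0.00043), and STARD10, a phospholipid transfer protein, one of 1.39 (adjusted p = 1.3e-05). The BT-549 signals of CD14 (7.27 to 7.83) and STARD10 (7.15 to 7.49) stayed below 8, so that a fall there could be seen only in part. TMEM107, a protein of the ciliary transition zone, had one of 1.82 (adjusted p = 1.1e-06), whereas its other probe, detected on 11 arrays, had one of 0.07 (adjusted p = 0.84 over all probes kept, as for every further probe given here), so the gene is uncertain. The lysosomal protease gene CTSD, the adhesion gene ALCAM and the unfolded protein response factor XBP1 also fell in MDA-MB-468 cells alone, with interactions of 0.84, 0.82 and 0.63, and their calls were lost in 2, 12 and 8 of the 26 alternatives.

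Other named genes rose in MDA-MB-468 cells alone. IL7R, the receptor chain for interleukin 7, had signals of 7.76, 7.48 and 7.70 with siPRKCD and 7.75, 8.04 and 8.29 with siControl in BT-549 cells, and 9.15, 9.78 and 9.38 with siPRKCD and 8.05, 8.17 and 8.18 with siControl in MDA-MB-468 cells. Its interaction was -1.68 (standard error 0.21, limma adjusted p = 0.00012), and the other probe of IL7R had one of -1.38 (adjusted p = 0.00078). The oxytocin receptor gene OXTR had a log2 fold change of -0.29 in BT-549 cells and rose by 1.27 in MDA-MB-468 cells (interaction -1.55, adjusted p = 0.00022). SOCS2, a suppressor of cytokine signalling, had signals of 9.81, 9.71 and 9.09 with siPRKCD and 9.33, 9.49 and 9.34 with siControl in BT-549 cells, which overlapped. In MDA-MB-468 cells SOCS2 had 9.44, 9.62 and 9.89 with siPRKCD, against 8.28, 7.89 and 8.14 with siControl, and its interaction was -1.39 (adjusted p = 0.0013), while a dimmer probe had one of -0.49 (adjusted p = 0.085). GABARAPL1, an autophagosome protein, rose by 0.87 in MDA-MB-468 cells alone (interaction -1.20, adjusted p = 0.00058).

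**Figure D2:**
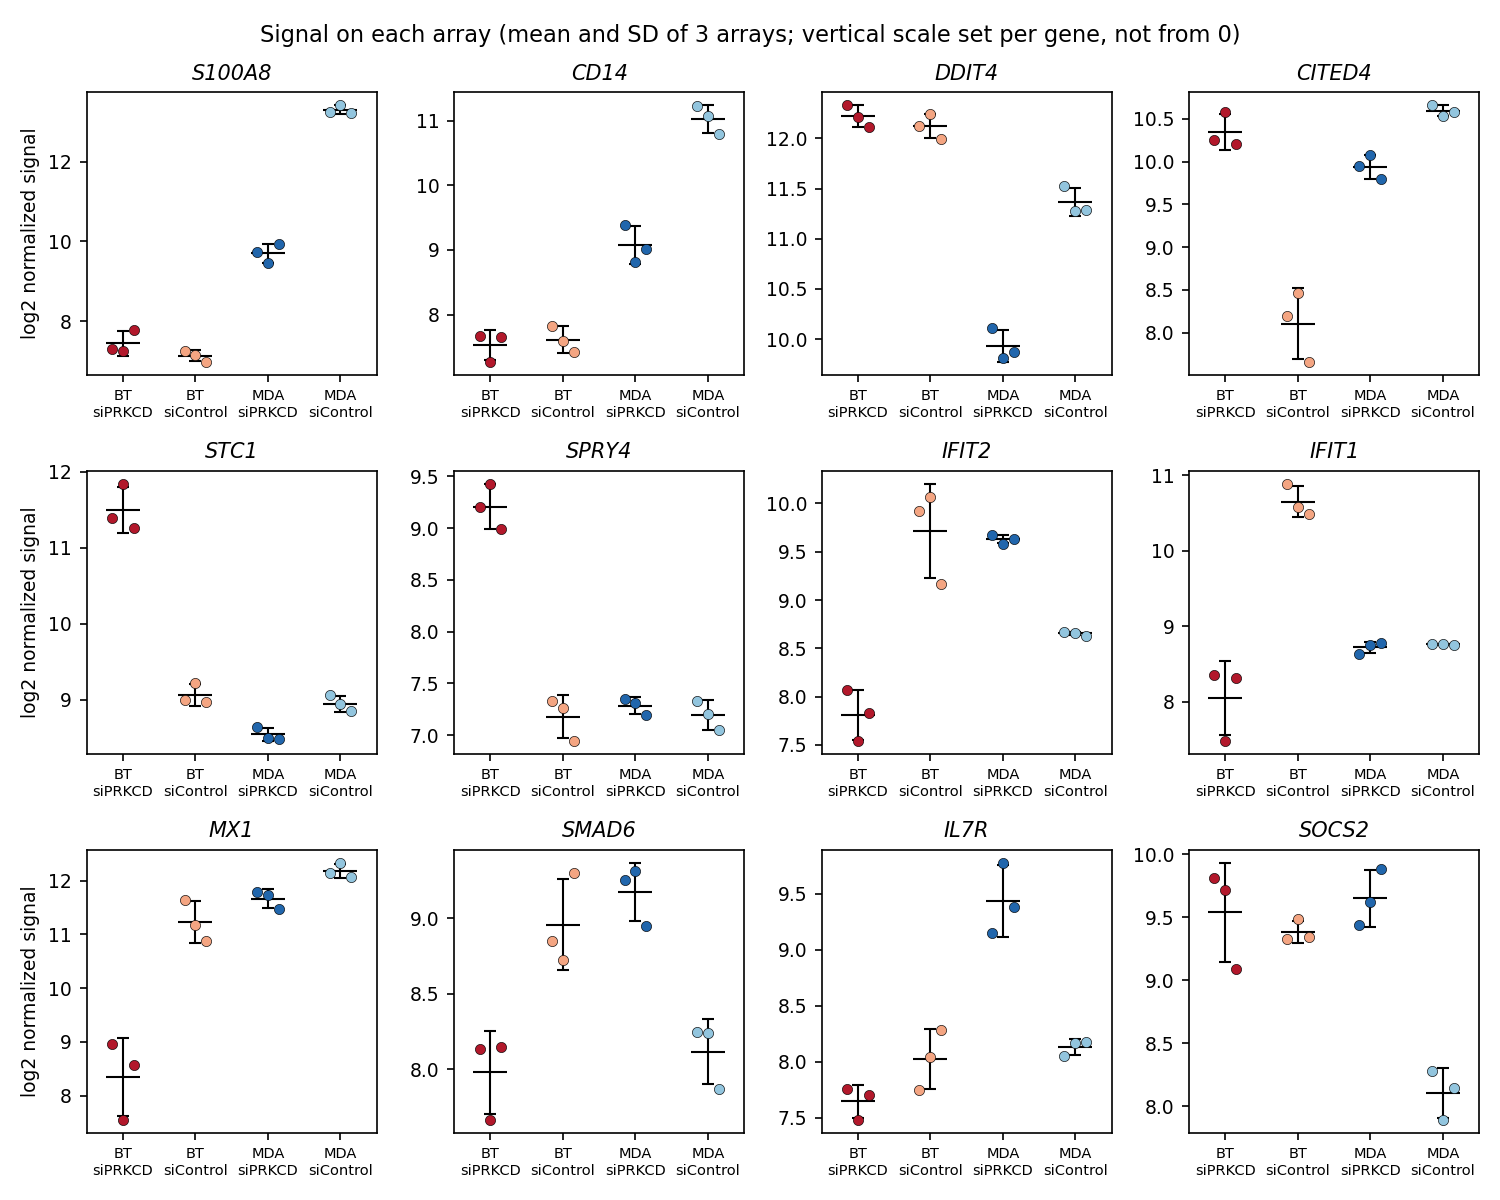
Quantile-normalized log2 signal of 12 genes on each of the 12 arrays, with bars for the mean and SD of 3 arrays, in siPRKCD and siControl cells of BT-549 (BT) and MDA-MB-468 (MDA). SPRY4 is high in the siPRKCD arrays of BT-549 cells alone, S100A8 is lower with siPRKCD in MDA-MB-468 cells alone, and IFIT2 and SMAD6 run in opposite directions.

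Of the 62 genes called in opposite directions, which are 0.783% of the 7916 and compare with 0.593% of all genes tested, 23 were higher in BT-549 cells and lower in MDA-MB-468 cells, and 39 had the reverse orientation. The count was 22 with median centring and 38 without BT-549 siControl replicate 2. CITED4, a coactivator that binds CBP and p300, had log2 signals of 10.25, 10.58 and 10.20 with siPRKCD and 8.19, 8.47 and 7.66 with siControl in BT-549 cells. In MDA-MB-468 cells it had 9.95, 10.08 and 9.80 with siPRKCD, against 10.66, 10.54 and 10.58 with siControl. The siPRKCD arrays thus lay above all siControl arrays in BT-549 cells and below them in MDA-MB-468 cells (log2 fold changes 2.24 and -0.65, interaction 2.90, standard error 0.23, limma adjusted p = 1.5e-06). The CITED4 signals of BT-549 cells with siPRKCD lay within the range of MDA-MB-468 cells.

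STC1, which encodes the secreted glycoprotein stanniocalcin, had signals of 11.38, 11.84 and 11.26 with siPRKCD and 8.999, 9.23 and 8.97 with siControl in BT-549 cells, and 8.65, 8.503 and 8.49 with siPRKCD and 9.06, 8.94 and 8.85 with siControl in MDA-MB-468 cells. The rise of 2.43 in BT-549 cells was large, while the fall of 0.40 in MDA-MB-468 cells was small (adjusted p = 0.032), and the interaction was 2.83 (adjusted p = 2.7e-07). CD82, a tetraspanin, rose by 0.87 in BT-549 cells and fell by 1.01 in MDA-MB-468 cells (interaction 1.88, adjusted p = 0.00024), and its dimmer probe had an interaction of 0.70 (adjusted p = 0.032). ALDH1A3, a retinaldehyde dehydrogenase that forms retinoic acid, had an interaction of 1.56 (adjusted p = 0.0005), although its MDA-MB-468 groups overlapped and a second probe of it had one of 1.04 (adjusted p = 0.058). The lipoprotein receptor gene VLDLR rose by 0.86 in BT-549 cells and fell by 0.44 in MDA-MB-468 cells, and the transcription factor gene CEBPB rose by 0.45 in BT-549 cells and fell by 0.56 in MDA-MB-468 cells. MESP1, ZNF185, SORBS2, PTGES and BPGM had smaller opposite changes, with interactions of 1.21, 1.003, 0.98, 0.97 and 0.92. Among these PTGES forms prostaglandin E and BPGM makes bisphosphoglycerate, and the calls of SORBS2 and BPGM were lost with median centring. A dim BPGM probe, detected on 10 arrays, had an interaction of 0.26 (adjusted p = 0.49).

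In the other orientation SMAD6, an inhibitor of bone morphogenetic protein signalling, had log2 signals of 8.13, 7.66 and 8.14 with siPRKCD and 8.85, 8.73 and 9.30 with siControl in BT-549 cells, and 9.25, 9.31 and 8.95 with siPRKCD and 8.24, 8.24 and 7.87 with siControl in MDA-MB-468 cells. It fell by 0.98 in BT-549 cells and rose by 1.06 in MDA-MB-468 cells, without overlap in either line (interaction -2.03, standard error 0.23, limma adjusted p = 5.6e-05). CTNNA1, which encodes α-catenin of the adherens junction, had 11.69, 11.37 and 11.54 with siPRKCD and 12.20, 12.06 and 11.87 with siControl in BT-549 cells, and 10.85, 11.08 and 10.50 with siPRKCD and 9.98, 9.87 and 9.51 with siControl in MDA-MB-468 cells. Its interaction was -1.53 (adjusted p = 0.0003), and that of its second probe was -1.23 (adjusted p = 0.0016). The carboxypeptidase gene CPA4 had an interaction of -1.48 and the tuftelin gene TUFT1 one of -1.45. MTMR11, GASK1B, MED22, a subunit of the Mediator complex, and FRMD8, a FERM domain protein, had interactions of -1.32, -1.24, -1.17 and -1.16. A dim MED22 probe, detected on 11 arrays, had one of -0.25 (adjusted p = 0.31), so MED22 is uncertain. PSG4, whose family members are near-identical so that the probe is uncertain, had one of -1.15.

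PRKCA, which encodes the calcium-dependent relative PKCα, was 1 of 3 PKC and PKD genes detected on all 12 arrays, and the 1 called. It had 9.73, 10.17 and 9.54 with siPRKCD and 10.20, 10.26 and 10.12 with siControl in BT-549 cells, which overlapped, and 8.20, 8.05 and 8.05 with siPRKCD and 7.67, 7.51 and 7.76 with siControl in MDA-MB-468 cells. PRKCA was called in each line, with a log2 fold change of -0.38 (adjusted p = 0.041) in BT-549 cells and of 0.46 (adjusted p = 0.017) in MDA-MB-468 cells, and with an interaction of -0.84 (limma adjusted p = 0.0084).

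**Figure D3:**
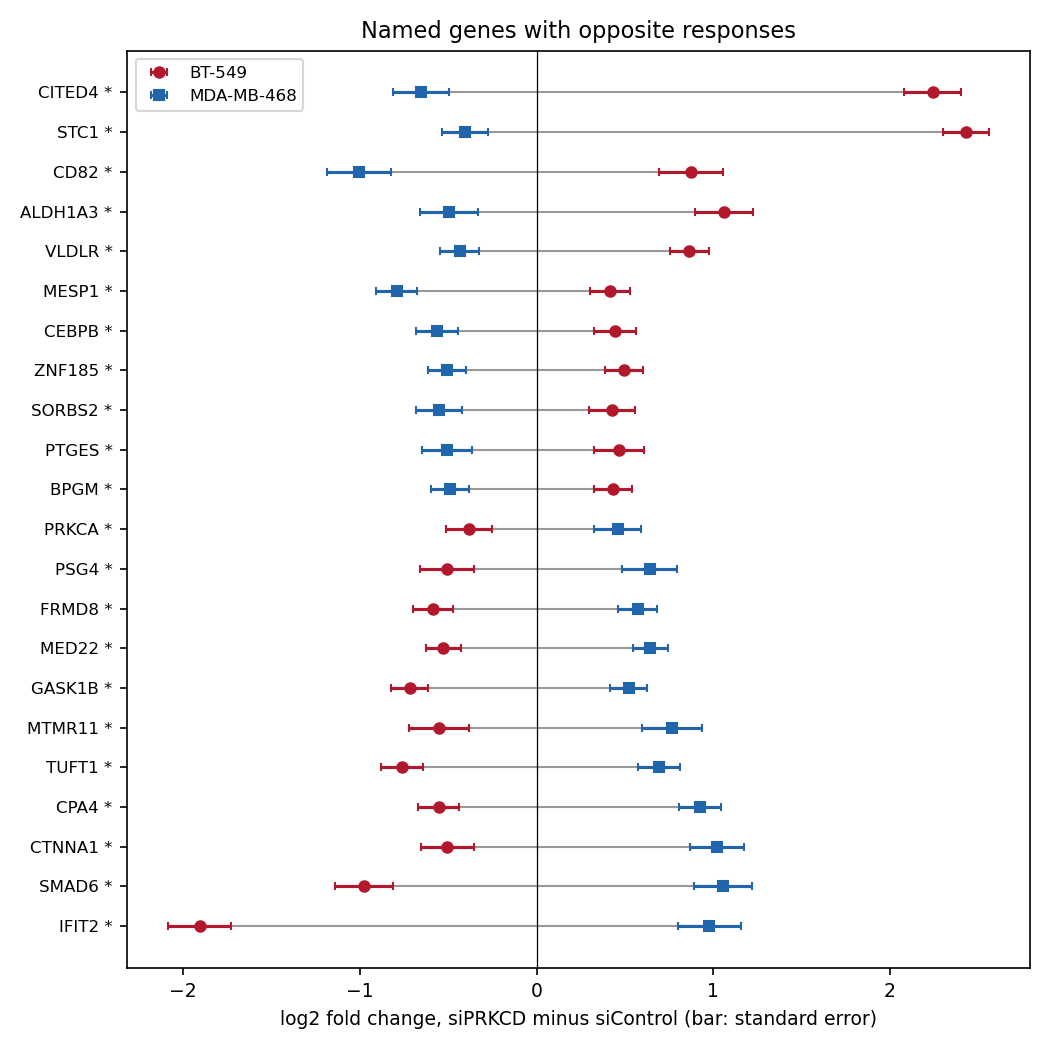
Log2 fold change of siPRKCD over siControl, with its standard error, in BT-549 (circles) and MDA-MB-468 cells (squares) for the 22 named genes with opposite responses. CITED4 and STC1 lie farthest apart at the top, and IFIT2 and SMAD6 at the bottom.

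In 57 genes the direction was shared and the size was not. Of these, 28 fell in both lines and more so in MDA-MB-468 cells, 12 fell more in BT-549 cells, 9 rose more in MDA-MB-468 cells and 8 rose more in BT-549 cells. The mucin gene MUC1 had 10.05, 9.30 and 9.76 with siPRKCD and 10.49, 10.24 and 10.15 with siControl in BT-549 cells, and 9.57, 9.23 and 9.41 with siPRKCD and 11.38, 11.31 and 11.10 with siControl in MDA-MB-468 cells, an interaction of 1.27 (limma adjusted p = 0.0017, lost with median centring). A second probe detected on all arrays had 1.26 (adjusted p = 0.00012), and a dim one, detected on 9 arrays with a mean log2 signal of 7.07, had 0.26. AKTIP, PLEKHA1 and OSBPL8, which encode an AKT-interacting protein, a phosphoinositide-binding protein and a lipid transfer protein, fell by 1.06, 0.55 and 0.48 in BT-549 cells and by 1.99, 1.59 and 1.41 in MDA-MB-468 cells. The OSBPL8 call was lost with median centring. RPL28, a ribosomal protein gene, rose by 0.55 in BT-549 cells and by 1.48 in MDA-MB-468 cells (interaction -0.93, adjusted p = 0.0022). The siControl signals of its probe were dim, 7.48, 7.63 and 7.67 in BT-549 cells and 7.28, 7.36 and 7.12 in MDA-MB-468 cells, so RPL28 is uncertain.

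Rises shared by both lines also differed in size. ADM, which encodes the vasodilator peptide adrenomedullin, had 11.50, 11.40 and 11.28 with siPRKCD and 9.53, 10.01 and 9.79 with siControl in BT-549 cells, and 11.20, 11.45 and 11.27 with siPRKCD and 11.08, 10.999 and 10.76 with siControl in MDA-MB-468 cells (interaction 1.26, limma adjusted p = 0.0003). SNHG7, a host gene of small nucleolar RNAs, went the other way. It had 8.71, 9.16 and 8.57 with siPRKCD and 7.95, 7.95 and 8.04 with siControl in BT-549 cells, and 12.20, 12.35 and 11.93 with siPRKCD and 9.99, 10.08 and 9.92 with siControl in MDA-MB-468 cells, an interaction of -1.32 (adjusted p = 0.00043). A second SNHG7 probe had an interaction of -1.67 (adjusted p = 5.3e-05), and a dim one, detected on 11 arrays with a mean log2 signal of 7.04, had one of -0.01. Of 14 snoRNA host genes 11 rose in BT-549 cells, against 14.5% of the 7916 genes, and 12 in MDA-MB-468 cells, against 15.4%. None fell in either line, the median interaction was -0.10, and 21.4% were called, against 9.59%. The 3 called were SNHG7, SNHG6 (-0.58) and SNHG12 (-0.66), and the call of SNHG6 was lost in 6 of 26 alternatives and that of SNHG12 in 13 of 25. Leaving out BT-549 siPRKCD replicate 3, siControl replicate 1 or 2, or MDA-MB-468 siPRKCD replicate 2 left 1 host gene called below 0.

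Antiviral interferon-induced genes made up the group with the most calls. Of 25 interferon response genes detected on all 12 arrays, 13 were called in the interaction, 12 below 0 and 1 above 0, with a median of -0.49 against -0.01 over all 7916 genes, of which 9.59% were called and 5.42% below 0. In BT-549 cells 20 of the 25 fell, against 16.6% of the 7916, and none rose, and in MDA-MB-468 cells 10 fell, against 13.9%, and 1, IFIT2, rose. The mean log2 level of the 25 genes was 9.09, 8.502 and 8.93 with siPRKCD in BT-549 cells, against 10.03, 9.70 and 9.64 with siControl. In MDA-MB-468 cells it was 9.27, 9.26 and 9.44 with siPRKCD, against 9.53, 9.59 and 9.75 with siControl. The siPRKCD arrays lay below the siControl arrays in both lines, by more in BT-549 cells, and BT-549 siPRKCD replicate 2 was the lowest of all. The count below 0 was 7 with median centring, 8 after neqc, 8 without BT-549 siPRKCD replicate 2 and 7 without BT-549 siControl replicate 1. It was also 8 without MDA-MB-468 siPRKCD replicate 1, siControl replicate 1 or siControl replicate 2.

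The promoters of 4 of these genes, picked for their different responses, are shown, with no promoter printed for IFIT2, which had the most negative interaction. They run from IFIT1 and MX1, which fell in BT-549 cells alone, over IFI44, which fell more there, to IFITM3, which fell more in MDA-MB-468 cells. Capitals mark the core of the interferon-stimulated response element, searched as GAAANNGAAA on both strands, in the 300 bases from 250 before to 50 after the start of the gene (RefSeq, GRCh38.p14).
IFIT1 (chr10:89392373-89392672, plus strand): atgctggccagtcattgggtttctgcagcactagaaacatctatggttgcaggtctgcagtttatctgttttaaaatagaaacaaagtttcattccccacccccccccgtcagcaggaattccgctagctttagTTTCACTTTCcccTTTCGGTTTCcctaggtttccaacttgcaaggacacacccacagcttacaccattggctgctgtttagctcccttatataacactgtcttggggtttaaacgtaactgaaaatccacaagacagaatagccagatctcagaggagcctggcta
MX1 (chr21:41420308-41420607, plus strand): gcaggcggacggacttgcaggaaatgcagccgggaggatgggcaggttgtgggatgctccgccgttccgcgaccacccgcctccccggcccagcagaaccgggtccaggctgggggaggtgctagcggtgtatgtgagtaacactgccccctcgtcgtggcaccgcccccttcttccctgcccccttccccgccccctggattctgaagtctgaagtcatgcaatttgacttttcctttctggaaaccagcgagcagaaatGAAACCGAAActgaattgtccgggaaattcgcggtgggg
IFI44 (chr1:78649539-78649838, plus strand): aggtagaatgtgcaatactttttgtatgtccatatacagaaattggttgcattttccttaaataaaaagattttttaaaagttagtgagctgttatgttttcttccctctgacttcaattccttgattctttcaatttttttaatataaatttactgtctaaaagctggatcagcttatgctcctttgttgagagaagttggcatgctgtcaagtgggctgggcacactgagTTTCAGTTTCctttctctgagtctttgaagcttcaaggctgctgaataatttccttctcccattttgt
IFITM3 (chr11:320811-321110, minus strand): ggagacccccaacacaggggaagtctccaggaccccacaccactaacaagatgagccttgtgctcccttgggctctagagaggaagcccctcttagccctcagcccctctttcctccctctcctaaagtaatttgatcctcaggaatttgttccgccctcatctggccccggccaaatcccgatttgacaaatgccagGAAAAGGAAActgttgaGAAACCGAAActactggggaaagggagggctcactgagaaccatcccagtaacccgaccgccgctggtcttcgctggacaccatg
Of the 22 interferon response genes with a promoter in the table used, 15 (68.2%) held this core, against 3.65% of 27305 promoters and 2.62% of the 6609 promoters matched among the 7916 genes. It was in 7 of the 11 called in the interaction and in 8 of the 11 not called. The genes were listed as interferon-induced, so the higher share does not describe the response to siPRKCD. A match is a run of letters and not evidence of binding.

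IFIT2, an antiviral protein that binds viral RNA, had the most negative interaction of the 7916 genes. Its log2 signals were 8.06, 7.54 and 7.83 with siPRKCD and 9.92, 10.07 and 9.16 with siControl in BT-549 cells. In MDA-MB-468 cells they were 9.67, 9.59 and 9.64 with siPRKCD and 8.67, 8.66 and 8.63 with siControl. IFIT2 fell by 1.91 in BT-549 cells and rose by 0.98 in MDA-MB-468 cells without overlap in either line (interaction -2.88, standard error 0.25, limma adjusted p = 4.7e-06). Its neighbour in the family IFIT1 had 8.35, 7.48 and 8.32 with siPRKCD and 10.89, 10.58 and 10.49 with siControl in BT-549 cells. In MDA-MB-468 cells the IFIT1 signals, 8.63, 8.76 and 8.77 with siPRKCD and 8.77, 8.76 and 8.75 with siControl, overlapped, and the interaction was -2.56 (adjusted p = 1.3e-05).

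MX1, a GTPase that blocks influenza virus, had 8.95, 7.55 and 8.57 with siPRKCD and 11.64, 11.18 and 10.88 with siControl in BT-549 cells, a fall of 2.88 in which replicate 2 was again the lowest. In MDA-MB-468 cells MX1 had 11.79, 11.74 and 11.47 with siPRKCD and 12.15, 12.33 and 12.07 with siControl, which did not overlap but missed the test (adjusted p = 0.17), and the interaction was -2.36 (limma adjusted p = 0.00073). IFI44 had 8.39, 7.68 and 8.21 with siPRKCD and 10.46, 10.005 and 9.69 with siControl in BT-549 cells, and 9.79, 9.78 and 10.08 with siPRKCD and 10.37, 10.45 and 10.81 with siControl in MDA-MB-468 cells. It fell in both lines and more in BT-549 cells (interaction -1.30, adjusted p = 0.0066). Non-overlap by itself was common, at 45.6% of the 7916 genes and 41.0% of all genes tested in BT-549 cells, and at 42.1% and 38.9% in MDA-MB-468 cells.

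The other 8 called below 0 fell in BT-549 cells, with interactions between -1.004 (HERC5) and -0.46 (EIF2AK2), and were named after their values were seen. They include HERC5 and UBE2L6, enzymes that attach the ubiquitin-like ISG15, EIF2AK2, the double-stranded RNA kinase PKR, the transcription factor genes IRF7 and IRF9, and IFI35, SP110 and PARP14. IRF9, a part of the factor that binds the response element, fell by 0.52 in BT-549 cells and had a log2 fold change of 0.14 in MDA-MB-468 cells (interaction -0.66). PARP14 and EIF2AK2 fell in both lines. The interferon gene that was called above 0, IFITM3, falls outside the rule for named genes and was chosen after its values were seen. This membrane protein, which restricts viral entry, fell by 0.35 in BT-549 cells and by 1.07 in MDA-MB-468 cells (interaction 0.72, adjusted p = 0.0073), and its sequence is close to that of IFITM1 and IFITM2, so the probe may read more than 1 of them. TYK2, a kinase of the interferon receptor, fell by 0.78 in BT-549 cells alone (interaction -0.69, adjusted p = 0.029, lost in 11 of 26 alternatives). It was listed with cytokine receptor, JAK, STAT and SOCS genes, of which 2 of 16 were called (12.5%, against 9.59% of the 7916 genes). These were TYK2 and SOCS2, both below 0, whereas 12 of the 16 had an interaction above 0 and the median was 0.18. Of 13 genes of MHC class I presentation 2 were called (15.4%, against 9.59% of the 7916 genes) and the median interaction was 0.13. TAP1, a peptide transporter, had an interaction of -0.72 (adjusted p = 0.014, lost with median centring), and HLA-B, whose probe may read other class I genes, one of 0.79 (adjusted p = 0.049, lost in 15 of 25 alternatives).

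**Figure D4:**
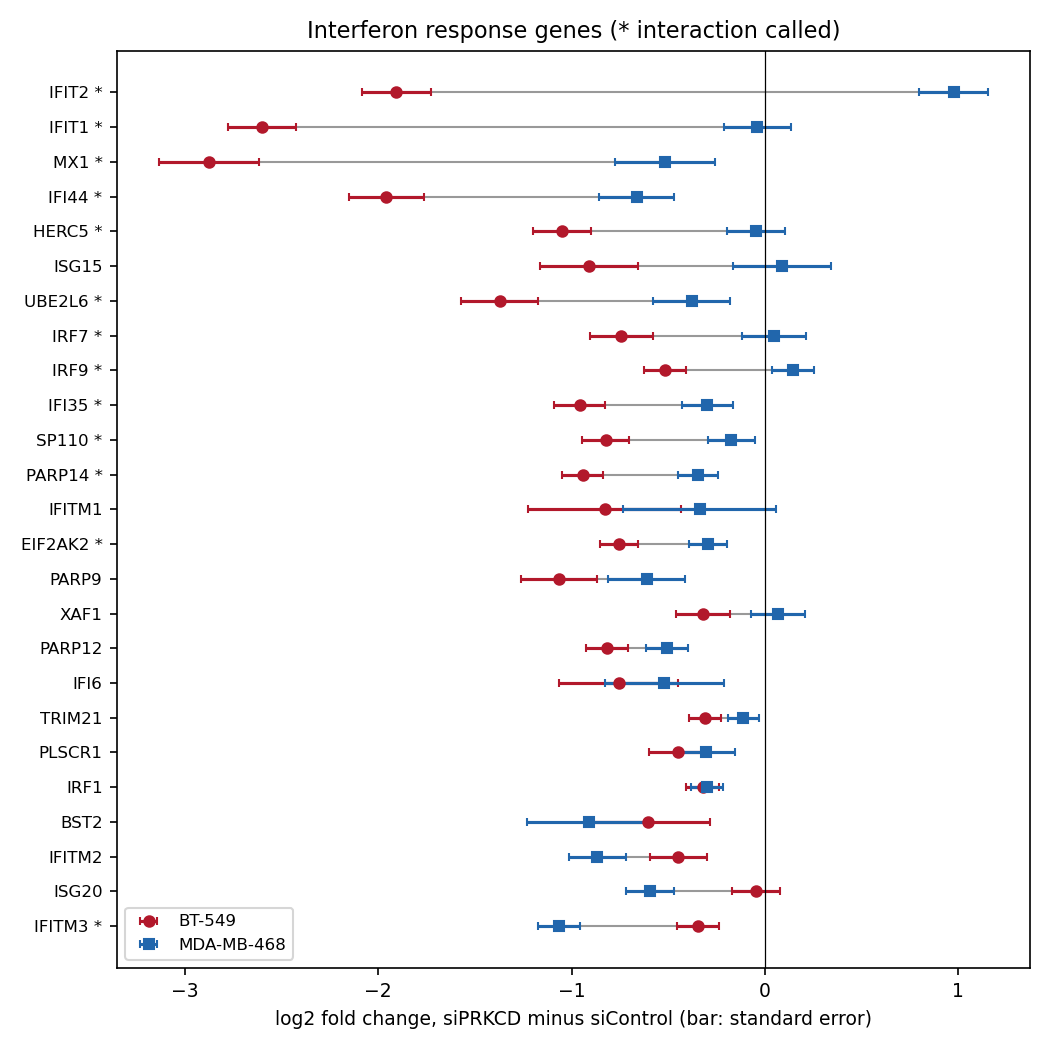
Log2 fold change of siPRKCD over siControl, with its standard error, for the 25 interferon response genes detected on all 12 arrays, in BT-549 (circles) and MDA-MB-468 cells (squares), ordered by the interaction; asterisks mark the 13 called. IFIT2 lies at -1.91 in BT-549 cells and 0.98 in MDA-MB-468 cells, and IFITM3 is the called gene that is lower in MDA-MB-468 cells.

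Among ERK pathway outputs and NF-kB targets most called interactions were above 0. Of 17 ERK outputs, 5 were called above 0 (SPRY4, ETV5, EGR1, CCND1 and IER3) and 1 below 0 (EPHA4), with a median of 0.35. Of all 7916 genes 4.17% were called above 0 and 5.42% below 0. With siPRKCD 9 of the 17 rose and 1 fell in BT-549 cells, against 14.5% and 16.6% of the 7916 genes. In MDA-MB-468 cells 4 rose and 3 fell, against 15.4% and 13.9%. ETV5 and EGR1, which encode transcription factors, were named after their values were seen. ETV5 rose by 1.36 in BT-549 cells (interaction 1.14, adjusted p = 0.0059), and EGR1 fell by 1.10 in MDA-MB-468 cells (interaction 1.05, adjusted p = 0.047). The ephrin receptor gene EPHA4 fell by 0.64 in BT-549 cells alone (interaction -0.88, adjusted p = 0.0022). Of 15 NF-kB targets 3 were called (20%, against 9.59% of the 7916 genes), all above 0, with a median of 0.38. They were IER3, the chemokine gene CXCL1 (1.12, adjusted p = 0.031) and the adhesion receptor gene ICAM1 (0.52, adjusted p = 0.0096), the last with BT-549 signals of only 7.05, 7.15 and 7.06 with siPRKCD and 7.06, 7.01 and 6.96 with siControl. CXCL1 fell by 0.96 in MDA-MB-468 cells and lost its call in 9 of 26 alternatives. With median centring 2 ERK outputs and 0 NF-kB targets were called above 0.

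Among ATF4 and its targets most called interactions were above 0 as well. Of 23, 7 were called above 0 (DDIT4, VLDLR, MTHFD2, CEBPB, SLC7A5, ATF4 and PHGDH) and 1 below 0 (ATF5), with a median of 0.33. Among all 7916 genes the shares were 4.17% above 0 and 5.42% below 0. In BT-549 cells 8 of the 23 rose and 1 fell, against 14.5% and 16.6% of the 7916 genes. In MDA-MB-468 cells none rose and 6 fell, against 15.4% and 13.9%. ATF4, MTHFD2, a mitochondrial folate enzyme, SLC7A5, a leucine transporter, PHGDH, which starts serine synthesis, and ATF5 fall outside the rule for named genes. ATF4 rose by 0.60 in BT-549 cells and had a log2 fold change of -0.03 in MDA-MB-468 cells. The interactions were 1.04 for MTHFD2, 0.98 for SLC7A5, 0.63 for ATF4, 0.53 for PHGDH and -0.89 for ATF5. None of 18 tRNA synthetase genes was called in limma (1 had an unadjusted p under 0.05), and their median was 0.12. The element TGATGNAA, which ATF4 binds, was in 4 of the 19 promoters matched to the group, in 0 of the 8 called and 4 of the 11 not called. It was in 3.67% of 27305 promoters and in 1.62% of the 6609 promoters matched among the 7916 genes. The genes were listed as ATF4 and its targets, so the share in the group does not describe the response to siPRKCD. The count of ATF4 genes above 0 was 3 with median centring, 4 after neqc and 10 without MDA-MB-468 siControl replicate 3.

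Among mesenchymal and matrix genes that both lines express the called interactions were all below 0. Of 10 genes 7 were called, against 9.59% of the 7916 genes called and 5.42% called below 0, and the median was -0.70. In BT-549 cells 6 of the 10 fell, against 16.6%, and in MDA-MB-468 cells 1 rose, against 15.4%. COL5A2, a fibrillar collagen chain, had 12.69, 12.25 and 12.59 with siPRKCD and 12.91, 12.84 and 12.87 with siControl in BT-549 cells, and 11.58, 11.66 and 11.36 with siPRKCD and 10.61, 10.67 and 9.73 with siControl in MDA-MB-468 cells. It rose in MDA-MB-468 cells alone (interaction -1.56, limma adjusted p = 0.0016). The matrix protein gene TGFBI fell by 0.52 in BT-549 cells alone (interaction -0.83, adjusted p = 0.019, lost without MDA-MB-468 siPRKCD replicate 2), and the collagen gene COL1A1 by 0.59 (interaction -0.74, adjusted p = 0.026, lost in 10 of 25 alternatives), with MDA-MB-468 signals of only 7.25, 7.40 and 6.99 with siPRKCD and 7.07, 6.97 and 7.15 with siControl. The remaining 4 were CDH2, TAGLN, TPM1 and TPM2. This count was 3 with median centring, 2 after neqc or with no filter on low values, and 1 without MDA-MB-468 siPRKCD replicate 2. Leaving out BT-549 siPRKCD replicate 2 or 3 or siControl replicate 2 or 3 gave 2 to 4, and leaving out MDA-MB-468 siPRKCD replicate 1 or siControl replicate 1 or 2 gave 2 or 3.

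Adhesion genes of other kinds went in both directions. Of 11 integrins and adhesion receptors 4 were called (36.4%, against 9.59% of the 7916 genes), NT5E and ALCAM above 0 and CD44 and ITGA3 below 0. CD44, the hyaluronan receptor, fell by 0.46 in BT-549 cells (interaction -0.67, adjusted p = 0.0036). Its other bright probe had an interaction of -0.62 (adjusted p = 0.054) and a dim one -0.22 (adjusted p = 0.34). Of 21 genes of the cortical actin linkers 3 were called (14.3%, against 9.59%). RDX, the radixin gene, had an interaction of -0.60 (lost in 7 of 26 alternatives) and ZYX the value above. Of 7 epithelial markers detected on all arrays MUC1 and S100A14 (0.59, lost in 4 of 25 alternatives) were called (28.6%, against 9.59%), both above 0. The BT-549 signals of S100A14 were only 7.16 to 7.29, so that a fall there could be seen only in part.

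Lipid synthesis genes had interactions mostly below 0. Of the cholesterol genes 5.88% were called and of the fatty acid genes 21.4%, against 9.59% of the 7916 genes. Of 17 cholesterol synthesis genes 16 had an interaction below 0, the median was -0.35 and 1 was called, HMGCS1, which makes the precursor of mevalonate. It had 9.69, 9.50 and 9.53 with siPRKCD and 11.16, 11.02 and 10.66 with siControl in BT-549 cells, and 12.23, 11.94 and 11.81 with siPRKCD and 12.88, 12.70 and 12.32 with siControl in MDA-MB-468 cells, an interaction of -0.73 (limma adjusted p = 0.039, lost in 12 of 26 alternatives). In BT-549 cells 8 of the 17 fell, against 16.6% of the 7916 genes, and in MDA-MB-468 cells 2, against 13.9%. Of 14 fatty acid synthesis genes 12 had an interaction below 0, with a median of -0.42, and FADS1 (-0.96), ACSS2 (-0.92) and ACSL1 (0.65) were called. These 3 calls were lost in 11, 14 and 11 of 26 alternatives, and a dim probe of ACSS2 had an interaction of -0.01.

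**Figure D5:**
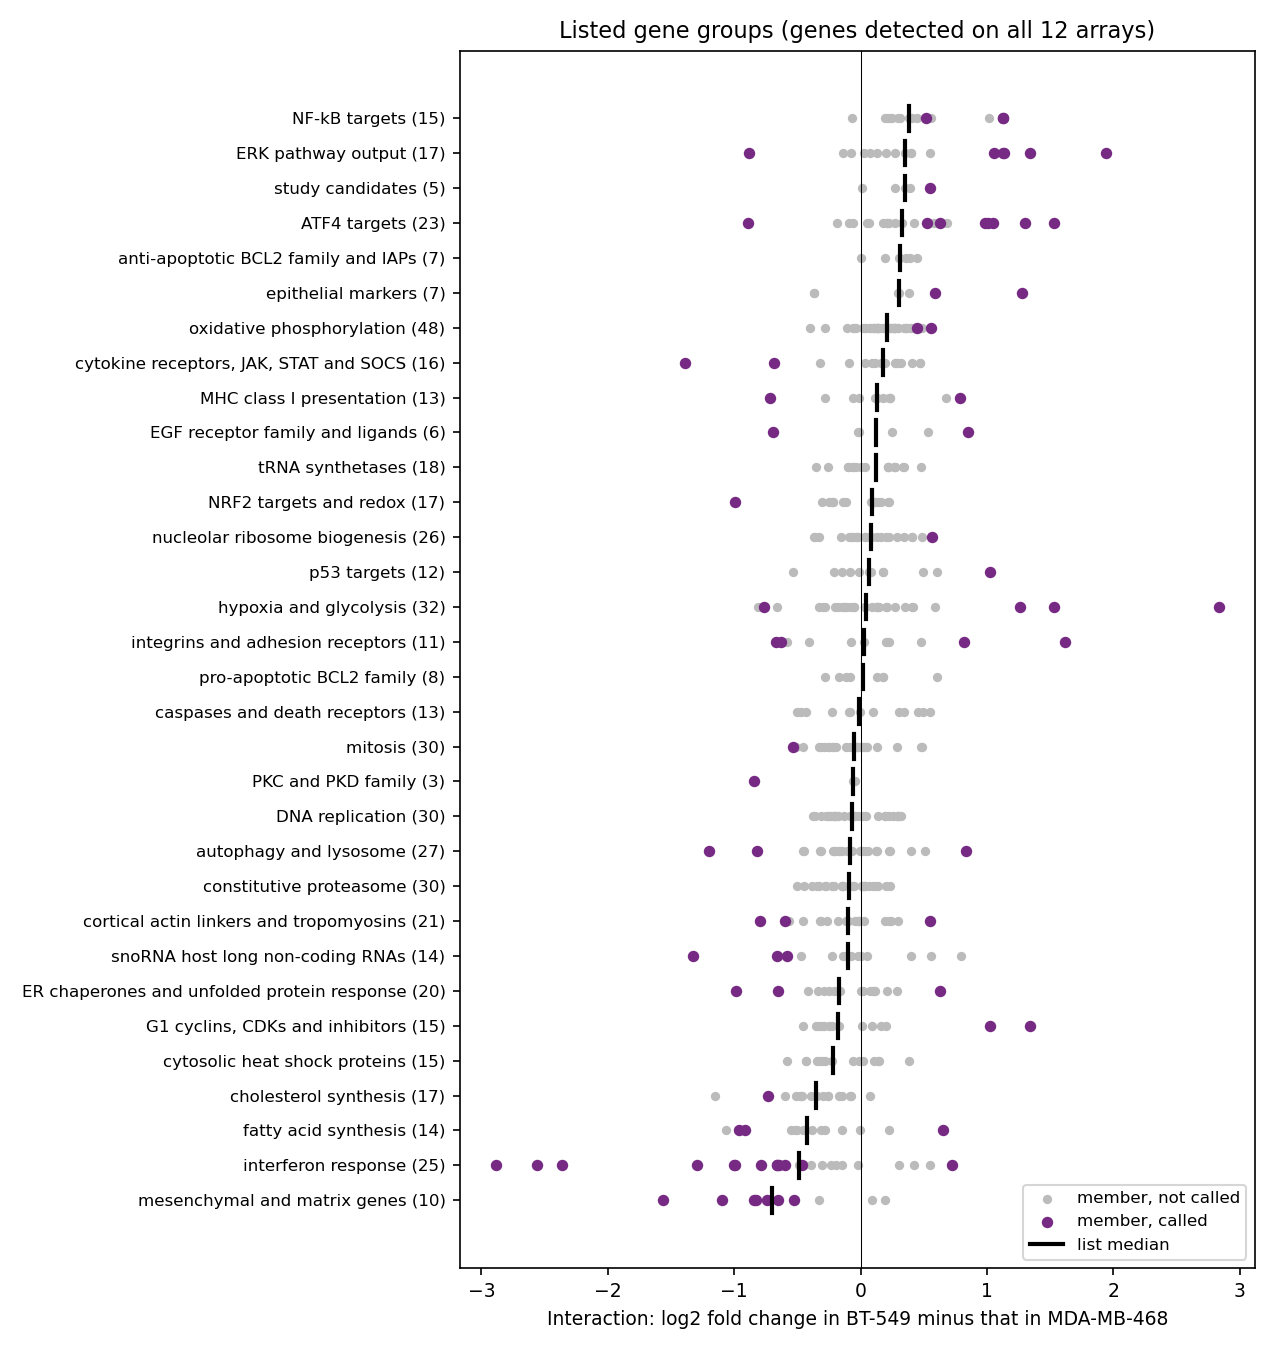
Interaction (log2 fold change in BT-549 cells minus that in MDA-MB-468 cells) of every gene detected on all 12 arrays in 32 gene groups, with called genes in dark colour and a bar at the group median. Group medians run from -0.70 for mesenchymal and matrix genes to 0.38 for NF-kB targets, and replication, proteasome and tRNA synthetase genes have no call.

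Housekeeping and cell death groups had few calls or none, where 9.59% of the 7916 genes were called. Among 30 DNA replication, 30 proteasome, 15 heat shock, 13 caspase and death receptor, 8 pro-apoptotic and 7 anti-apoptotic genes none was called in the interaction by limma, while 1, 4, 5, 6, 1 and 2 of them had an unadjusted p under 0.05. Of 30 mitosis genes KIF20A, a kinesin of cytokinesis, was the 1 called (-0.53), and of 26 ribosome biogenesis genes BRIX1 (0.56), both calls being lost in 3 of 26 alternatives. A second bright BRIX1 probe, detected on all arrays, had an interaction of 0.31 (adjusted p = 0.34), so BRIX1 is uncertain. All 7 anti-apoptotic genes had an interaction of 0 or above, with a median of 0.31. Of 48 oxidative phosphorylation genes 42 had an interaction above 0 with a median of 0.21, and NDUFA3 (0.56) and NDUFA13 (0.44), subunits of complex I, were called and lost the call in 10 and 16 of 26 alternatives. Of 32 hypoxia and glycolysis genes 4 were called (12.5%, against 9.59% of the 7916), STC1, DDIT4 and ADM above 0 and PFKFB4 (-0.76) below 0, and the median was 0.04. With median centring the medians of the hypoxia, tRNA synthetase, ribosome biogenesis and pro-apoptotic groups lay just below 0, at -0.06, -0.01, -0.04 and -0.07. Of 20 genes of the endoplasmic reticulum group 3 were called (15%, against 9.59% of the 7916), with a group median of -0.17. The chaperone genes CRELD2 (-0.99) and DNAJB11 (-0.65) were called below 0 and XBP1 (0.63) above 0. Of 6 genes of the EGF receptor group 2 were called (33.3%). ERRFI1, an inhibitor of the receptor, had 0.85 and ERBB2 -0.69, the ERBB2 call being lost in 9 of 26 alternatives. The calls of DNAJB11 and ERRFI1 were lost with median centring.

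The 5 genes that the study followed up and that could be read here, CLDND1, PLEKHA2, SLC30A9, MSN and PRKAR1A, fell in both lines. The study chose them for a response in every line, on these samples and on MDA-MB-231 cells, which are not part of this series. Their interactions were 0.39 (95% interval 0.12 to 0.66) for CLDND1, 0.35 (0.00 to 0.70) for PLEKHA2, 0.27 (-0.03 to 0.58) for SLC30A9 and 0.01 (-0.42 to 0.45) for PRKAR1A, none of which passed the test. CLDND1 was called in 3 of the alternatives (with no filter on low values, with array weights and with a replicate block in each line) and PLEKHA2 in 1 (after neqc). MSN, which encodes moesin, a linker of actin to the membrane, had 9.18, 9.46 and 9.57 with siPRKCD and 10.93, 10.69 and 10.80 with siControl in BT-549 cells, and 7.79, 7.61 and 7.81 with siPRKCD and 9.79, 9.59 and 9.69 with siControl in MDA-MB-468 cells. Its interaction of 0.55 passed the test (limma adjusted p = 0.035) but did not in 10 of 26 alternatives. Of the reference genes of the study's PCR, SDHA had an interaction of 0.49 (adjusted p = 0.054, called in 4 alternatives) and YWHAZ one of -0.12 (adjusted p = 0.76).

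The classes differed in the level of the genes in siControl cells. Of the 201 genes that fell in BT-549 cells alone, 151 (75.1%) had a higher siControl level in BT-549 than in MDA-MB-468 cells, against 52.0% of all 7916 genes, and so had 30 of the 39 that fell in BT-549 and rose in MDA-MB-468 cells. Of the 142 genes that fell in MDA-MB-468 cells alone 38 (26.8%) had the higher siControl level in BT-549 cells, as had 5 of the 23 with the opposite orientation. The siControl arrays enter both the level and the response, so this is a description with no test. In 513 of the 759 called genes (67.6%) the mean siControl signal was at least 8 on the log2 scale in both lines, and 66.3% of all 7916 genes met this. Near the detection limit, 438 genes detected on 11 arrays had 38 calls, and 436 genes just inside it, with a highest detection p above 0.005, had 36.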

How the data were processed

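RNA of 12 samples in 4 groups of 3 was measured on Illumina HumanHT-12 v4 arrays. The deposited signals were bead intensities (AVG_Signal) per probe, not normalized, each with a detection p-value that the authors' software set against negative control beads. The authors also deposited a normalized intensity table, used as an alternative. Here intensities were quantile normalized without background correction and taken to log2 (R 4.3.3, limma 3.58.1). Probes with a detection p under 0.01 on at least 3 of 12 arrays were kept, 19439 of 47323. Of all probes 30113 had 1 gene symbol, 8 several and 17202 none in the platform annotation, and 30074 were matched to RefSeq. A gene was read from its brightest kept probe, which left 11459 genes. One limma model with 4 group means gave the response of each line and the interaction, with Benjamini-Hochberg adjustment over all 11459 genes. Number of arrays, not depth, limits precision.

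Named genes were the 15 largest called interactions in each direction, up to 10 opposite responses per orientation, up to 8 shared responses, up to 3 called genes of each of 33 lists, the study's candidates (2 not analysed here), PRKCD and PCR reference genes. Members and lists were chosen with earlier results of these data known. Promoters came from RefSeq, searched in Python 3.11.15. The fit was tested on simulated data.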

Additional observations from a re-analysis of the deposited data

Results flagged for a closer look

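For each of the 88 named genes below the difference between the lines was itself tested, as the interaction in limma at an adjusted p under 0.05, and this is what picked them; the values are log2 interactions, BT-549 minus MDA-MB-468. Higher with siPRKCD in BT-549 cells alone were SPRY4 (1.94), NT5E (1.62), SNORD3C (1.502), SLC1A3 (1.37), CCND1 (1.34), IER3 (1.13) and CDKN1A (1.02). Lower in BT-549 cells alone were IFIT1 (-2.56), MX1 (-2.36), PRRT3 (-1.62), SLC12A8 (-1.47), THBS1 (-1.37), LAMA5 (-1.35), HMOX1 (-0.99), CRELD2 (-0.99), FADS1 (-0.96), ACSS2 (-0.92), EPHA4 (-0.88) and TGFBI (-0.83). The same class held SQSTM1 (-0.82), ZYX (-0.80), COL1A1 (-0.74), TAP1 (-0.72), ERBB2 (-0.69), TYK2 (-0.69), CD44 (-0.67), RDX (-0.60) and KIF20A (-0.53). Higher in MDA-MB-468 cells alone were IL7R (-1.68), COL5A2 (-1.56), OXTR (-1.55), SOCS2 (-1.39), GABARAPL1 (-1.20), SNHG12 (-0.66) and DNAJB11 (-0.65). Lower in MDA-MB-468 cells alone were S100A8 (3.92), CD14 (1.87), TMEM107 (1.82), S100A9 (1.62), GABBR2 (1.61), DDIT4 (1.53), STARD10 (1.39), CXCL1 (1.12), ERRFI1 (0.85), CTSD (0.84), ALCAM (0.82) and HLA-B (0.79). The same class held ACSL1 (0.65), XBP1 (0.63), S100A14 (0.59), NDUFA3 (0.56), ICAM1 (0.52) and NDUFA13 (0.44). Higher in BT-549 and lower in MDA-MB-468 cells were CITED4 (2.90), STC1 (2.83), CD82 (1.88), ALDH1A3 (1.56), VLDLR (1.30), MESP1 (1.21), CEBPB (1.01), ZNF185 (1.003), SORBS2 (0.98), PTGES (0.97) and BPGM (0.92). Lower in BT-549 and higher in MDA-MB-468 cells were IFIT2 (-2.88), SMAD6 (-2.03), CTNNA1 (-1.53), CPA4 (-1.48), TUFT1 (-1.45), MTMR11 (-1.32), GASK1B (-1.24), MED22 (-1.17), FRMD8 (-1.16), PSG4 (-1.15) and PRKCA (-0.84). Higher in both lines and more in BT-549 cells were ADM (1.26) and BRIX1 (0.56). Higher in both lines and more in MDA-MB-468 cells were SNHG7 (-1.32), RPL28 (-0.93) and SNHG6 (-0.58). Lower in both lines and more in BT-549 cells were IFI44 (-1.30) and HMGCS1 (-0.73). Lower in both lines and more in MDA-MB-468 cells were MUC1 (1.27), PLEKHA1 (1.04), AKTIP (0.94), OSBPL8 (0.93), PRKCD (0.84) and MSN (0.55). The call held under every alternative in which the gene was tested (25 or 26) for 52 of the 88, and the direction reversed for none of them.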

How the results depend on the processing

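Under the alternatives for scaling, background, filter, probe choice, variance model, array weights, replicate block, threshold and single arrays, no called named gene turned its direction (PRKAR1A, not called, lay between -0.17 and 0.20). The counts were within 1.5 times the reported ones except as follows, where counts inside that limit are marked. Of the 759 calls, 330 above 0 and 429 below 0, with 62 in opposite directions, median centring left 257 (48 and 209) with 22 opposite, and an adjusted p under 0.01 left 287 (124 and 163) with 19 opposite. A log2 signal of at least 8 in both siControl groups left 284 below 0 and 40 opposite. Array weights gave 1331 calls (580 and 751) with 125 opposite. The replicate number as a block within each line gave 1244 (537 and 707) with 119 opposite. As a block over both lines it gave 941 with 80 opposite, both inside the limit. Leaving out each array in turn gave 505 to 751 calls, 219 to 314 above 0, 284 to 448 below 0 and 38 to 60 opposite. Only the lowest count of each of these ranges fell outside the limit. Centring on the probes detected on all arrays, an alternative chosen after seeing the data, gave 594 calls, 48.8% of them above 0, with 50 opposite, which is inside the limit. The cause of these differences was not tested. Deviations of same-numbered arrays correlated at 0.281, 0.010 and 0.046 in BT-549 cells, and at 0.367, 0.287 and 0.492 in MDA-MB-468 cells, where each array correlated best with its own number. In BT-549 cells siPRKCD replicates 2 and 3 correlated best with a siControl array of another number. The main fit did not pair samples by number, whereas the block within each line, with its 1244 calls, did. Shared handling of same-numbered MDA-MB-468 arrays was not tested beyond this. Of the 88 named calls, 31 were lost with median centring and 18 after neqc. Precision is limited by 3 arrays a group and, for signals near background in either line, by changes that can be seen only in part.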
